A study of Mus musculus with 4 samples.

Results

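Troponins and tropomyosins, the proteins that switch muscle contraction on and off, were followed in RNA-seq libraries of mouse brown adipose tissue. The set was chosen by gene symbol and holds 10 of the 52022 genes to which the deposited transcripts could be assigned: 7 troponin genes (Tnnt1, Tnnt2, Tnnt3, Tnni1, Tnni2, Tnnc1 and Tnnc2) and 3 tropomyosin genes (Tpm1, Tpm2 and Tpm3). These genes have 120 annotated transcripts. The set was proposed with the difference between the genotypes already known, so the values of KO against WT for these genes are a description, and how the test across all genes called them is given only as counts from which nothing is read.

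All tissue was brown fat from males with free access to food after 12 weeks on a 60% fat diet. The KO group, 2 libraries called KO 1 and KO 2, came from animals in which thermogenic adipocytes lack the transcription factor ATF4. The WT group, 2 libraries called WT 1 and WT 2, came from wild-type animals on the same diet. The sources used here do not say how ATF4 was deleted or whether each library is a separate animal, so the spread between 2 libraries of a group may be technical. Cells other than thermogenic adipocytes keep Atf4 in this design.

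Striated muscle contracts when calcium reaches the thin filament, a rope of actin with tropomyosin lying along its groove and a troponin complex fixed to each tropomyosin. Troponin T ties the complex to tropomyosin, troponin I holds contraction off, and troponin C releases that hold when it binds calcium. Fast fibres use Tnnt3, Tnni2 and Tnnc2, slow fibres use Tnnt1, Tnni1 and Tnnc1, and heart muscle uses Tnnt2 and Tnni3 with the Tnnc1 it shares with slow fibres. Tropomyosin genes are read in several ways: a long form with a striated-muscle last exon stabilises the sarcomere, while forms with other ends serve smooth muscle and the actin cytoskeleton of nearly all cells. Brown adipocytes make heat and have no sarcomeres.

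Library depth was 25985367 and 30405113 estimated counts in KO 1 and KO 2 and 32714456 and 34813870 in WT 1 and WT 2. Brown adipocyte markers fitted the labelled tissue in every library, with Ucp1, the uncoupling protein that makes heat, at 7024 and 5989 CPM in KO and 5563 and 6295 CPM in WT (CPM, counts scaled to a common library size after TMM scaling). The targeted gene Atf4 was at 24.97 and 24.5 CPM in KO 1 and KO 2, against 29.2 CPM in the library labelled WT 1 and 107 CPM in WT 2. The library labelled WT 1 thus lay near the KO level of Atf4, and fold changes of the troponins and tropomyosins are given below with and without it. Library names begin with S1 for KO 1 and WT 2 and with S2 for KO 2 and WT 1. The sources used here do not say what the prefix means, and it serves below as a second grouping.

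The ends of the tropomyosin transcripts carry the distinction between muscle and other forms, so the last coding exon over 30 bases of each main form is shown first, from the annotated transcripts of GENCODE vM21 (build GRCm38). Each line runs 5′ to 3′ on the coding strand. Capitals in the Tpm2 and Tpm3 lines mark bases that differ from the Tpm1 exon of the same kind, compared base by base from the first base, or that run past its end.
Tpm1 striated end, ENSMUST00000113685, chr9:67029664-67029742, minus strand: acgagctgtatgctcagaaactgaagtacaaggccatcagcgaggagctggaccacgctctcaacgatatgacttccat
Tpm2 striated end, ENSMUST00000107913, chr4:43515924-43516003, minus strand: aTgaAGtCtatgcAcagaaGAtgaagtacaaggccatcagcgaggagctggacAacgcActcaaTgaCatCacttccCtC
Tpm3 striated end, ENSMUST00000121503, chr3:90091013-90091091, plus strand: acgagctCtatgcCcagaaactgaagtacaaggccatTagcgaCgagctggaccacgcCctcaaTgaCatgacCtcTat
Tpm1 other end, ENSMUST00000113695, chr9:67023362-67023441, minus strand: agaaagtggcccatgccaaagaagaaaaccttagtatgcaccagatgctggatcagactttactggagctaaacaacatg
Tpm2 other end, ENSMUST00000107914, chr4:43514782-43514861, minus strand: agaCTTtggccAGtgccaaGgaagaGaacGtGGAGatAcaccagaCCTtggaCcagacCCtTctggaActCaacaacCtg
Tpm3 other end, ENSMUST00000029549, chr3:90099528-90099607, plus strand: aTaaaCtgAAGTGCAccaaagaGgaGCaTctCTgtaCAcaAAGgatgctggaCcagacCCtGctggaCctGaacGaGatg
In Tpm1 and Tpm3 the striated exon is followed by 1 more coding base in the next exon. Striated ends were alike between genes: Tpm2 matched Tpm1 at 83.5% of 79 bases and Tpm3 matched it at 88.6%. The other ends were less alike, at 71.3% for Tpm2 and 65.0% for Tpm3 over 80 bases. Within a gene the striated and the other exon shared 43.0% of bases in Tpm1, 41.3% in Tpm2 and 45.6% in Tpm3. The longest run of identical bases between any annotated transcripts of 2 genes was 37 bases for Tpm1 and Tpm2, 23 for Tpm1 and Tpm3 and 17 for Tpm2 and Tpm3. Among the troponins compared within a subunit, the longest shared run was 22 bases, between Tnni1 and Tnni2.

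The fast troponins were at 162 to 259 TPM in KO and near the detection limit in WT. Tnnt3, the fast troponin T (chr7:142498836-142516009), had 5821 and 5095 counts in KO 1 and KO 2, against 3 and 2 counts in WT 1 and WT 2. Per length, this was 259 and 228 TPM in KO and 0.113 and 0.129 TPM in WT (TPM, a level per transcript length, the unit in which levels of different genes are compared here). Both KO libraries were high and both WT libraries held a handful of reads, with no overlap. In CPM both KO libraries were above both WT libraries for 13.2% of all genes tested, so nothing is read from a lack of overlap by itself. Tnni2, the fast troponin I that inhibits contraction at rest (chr7:142441808-142444410), had 2803 and 2478 counts in KO, against 3 and 4 in WT. Its level was 177 and 162 TPM in KO, against 0.420 and 0.386 TPM in WT. The few WT counts of Tnni2 all lay on transcripts annotated as non-coding, so that its coding transcripts were at 0 in both WT libraries. Tnnc2, the fast calcium sensor (chr2:164777161-164779967), had 2770 and 2457 counts in KO, against 3 and 4 in WT, which gave 248 and 231 TPM in KO and 0.172 and 0.225 TPM in WT. The 3 fast genes therefore gave the same picture in each library, high in KO 1 and KO 2 and close to 0 in WT 1 and WT 2.

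On the log2 scale the fitted difference of KO over WT was 11.34 for Tnnt3 (SE 0.37), 9.83 for Tnni2 (SE 0.33) and 9.82 for Tnnc2 (SE 0.32). Since WT held only a few counts, the ratio of the groups' pooled CPM is given with its exact 95% counting interval, which covers counting error alone. It was 2716 for Tnnt3 (1163 to 8365), 938 for Tnni2 (455 to 2335) and 929 for Tnnc2 (450 to 2311). Without the library labelled WT 1 the log2 differences were 11.75, 9.75 and 9.73 in the same order of genes.

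**Figure D1:**
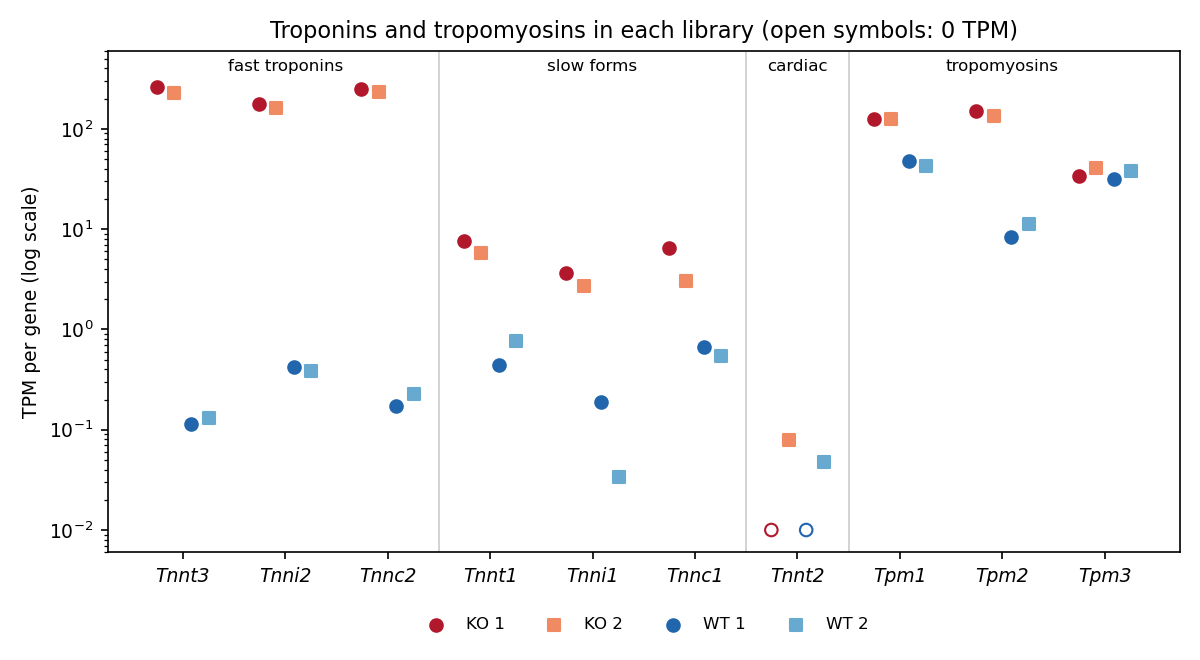
Level of each gene in TPM (log axis) in KO 1, KO 2, WT 1 and WT 2, one point per library, with open symbols for 0 TPM. The fast troponins sit between 162 and 259 TPM in KO and at most 0.420 TPM in WT, the slow forms between 2.71 and 7.60 TPM in KO, and Tpm3 overlaps between the groups.

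The slow troponins were also higher in KO, at far lower levels. Tnnt1, the slow troponin T (chr7:4504570-4516382), had 159 and 112 counts in KO, against 7 and 14 in WT, or 7.60 and 5.80 TPM in KO and 0.439 and 0.761 TPM in WT. Tnni1, the slow troponin I (chr1:135779434-135810989), had 100 and 74 counts in KO, against 3 and 1 in WT, or 3.64 and 2.71 TPM in KO and 0.190 and 0.0336 TPM in WT. Tnnc1, the calcium sensor shared by slow fibres and heart (chr14:31208312-31211729), had 99 and 47 counts in KO and 10 in each WT library, or 6.43 and 3.05 TPM in KO and 0.674 and 0.540 TPM in WT. KO was above WT without overlap for each slow gene, as it was in CPM for 13.2% of all genes tested. Tnnc1 had the widest gap between the KO libraries. Its span lies inside that of Nisch, a gene expressed in both groups, so its few WT counts are uncertain. The fitted log2 difference of KO over WT was 4.02 for Tnnt1 (SE 0.46), 5.67 for Tnni1 (SE 0.61) and 3.20 for Tnnc1 (SE 0.57). Pooled ratios were 16.1 for Tnnt1 (10.3 to 26.4), 54.1 for Tnni1 (20.8 to 201) and 9.08 for Tnnc1 (5.67 to 15.3). Without the library labelled WT 1 the log2 differences were 3.71 for Tnnt1, 6.68 for Tnni1 and 3.31 for Tnnc1.

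The cardiac forms held at most 6 counts in any of the 4 libraries. Tnnt2, the cardiac troponin T (chr1:135836354-135852260), had 0 and 2 counts in KO and 0 and 1 in WT. Tnnt2 was this low in both groups and did not pass the filter on low counts, so no fold change is given. Tnni3, the cardiac troponin I, which is not among the 10 genes, had 3 and 5 counts in KO and 6 and 2 in WT. Both cardiac genes lie near slow troponin genes, Tnnt2 at 25.4 kb from Tnni1 and Tnni3 at 1.92 kb from Tnnt1. Neither cardiac gene shared the level of that slow gene in KO.

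Within each subunit the fast gene made up nearly all of the signal in KO. In TPM, Tnnt3 stood 34.03 and 39.3 times above Tnnt1 in KO 1 and KO 2, Tnni2 stood 48.8 and 59.7 times above Tnni1, and Tnnc2 stood 38.6 and 75.5 times above Tnnc1. Over all troponins, Tnni3 included, the fast share was 97.4% and 98.1% of TPM in KO, against 30.4% and 32.4% in WT. The WT shares rest on 35 and 38 counts, of which 9 and 10 were fast. In estimated counts, the fast share of all troponins was 96.9% (Wilson 95% interval 96.6 to 97.2) in KO 1 and 97.7% (97.4 to 97.9) in KO 2, against 25.7% (14.2 to 42.1) in WT 1 and 26.3% (14.97 to 42.01) in WT 2. The intervals cover counting error within a library alone, not the spread between libraries. As the set was chosen on this contrast, nothing is read from whether they overlap between the groups.

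**Figure D2:**
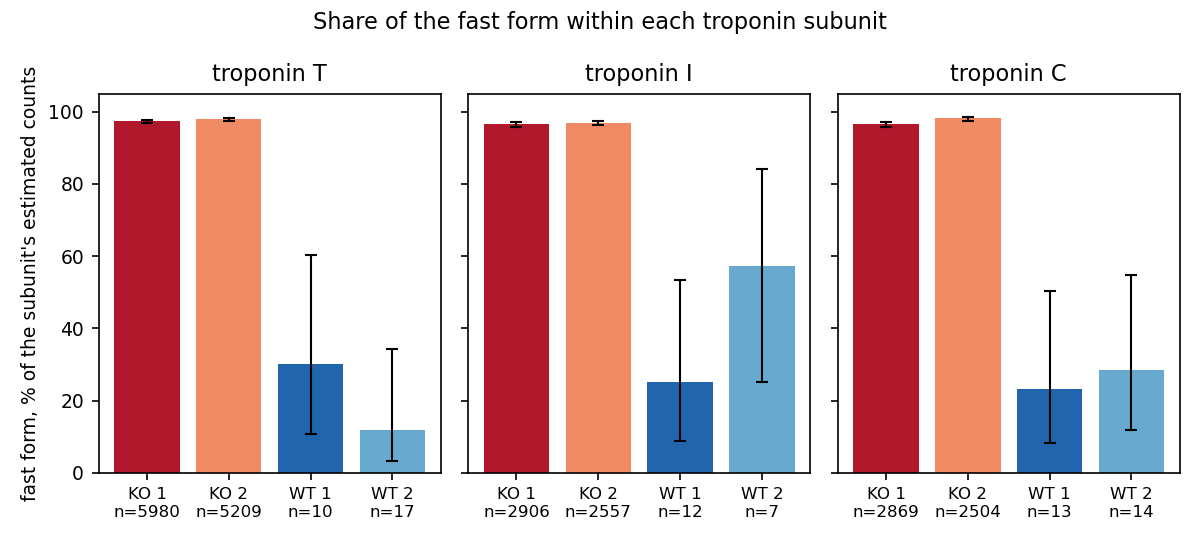
Share of the fast form in the estimated counts of troponin T, I and C (percent), with Wilson 95% intervals as error bars and the number of counts under each bar, for KO 1, KO 2, WT 1 and WT 2. Every KO bar lies above 96%, and the WT bars rest on 7 to 17 counts each.

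The subunits of the complex were of the same order of abundance. Summed over fast, slow and cardiac genes, troponin T was at 266 and 233 TPM, troponin I at 181 and 165 TPM and troponin C at 254 and 234 TPM in KO 1 and KO 2. In WT the subunit sums ran from 0.552 to 0.938 TPM. The troponin C sum depends on how Tnnc2 is counted. A short Tnnc2 transcript without a coding sequence (ENSMUST00000155443) took 75.5 and 80.7 TPM in KO from 216 and 232 counts, because its effective length is 97.1 bases. With coding transcripts alone the KO sums were 252 and 225 TPM for troponin T, 181 and 164 TPM for troponin I and 179 and 153 TPM for troponin C. The 7 troponin genes took 0.0457% and 0.0341% of all gene counts in KO, against 8.96e-05% and 0.000104% in WT.

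Tnnt3 is spliced in many ways, and its form in KO was of 1 main kind. A pair of mutually exclusive coding exons of 41 bases lies near its end, at chr7:142513665-142513705 and chr7:142514326-142514366. Transcripts with the downstream exon held 90.5% and 95.01% of the gene's TPM in KO 1 and KO 2, and those with the upstream exon held 4.07% and 1.43%. A 39-base coding exon at chr7:142507750-142507788 was in transcripts that held 2.53% and 1.02%. Both KO libraries thus shared the same exon choice, while the split over single transcripts varied: ENSMUST00000074187 took 29.0% and 53.9%, and ENSMUST00000105949 took 37.2% and 14.8%. With 3 and 2 counts in WT, no exon share can be given there.

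Tropomyosins differed from the troponins in that WT expressed all 3 genes. Tpm1, whose striated form is the main tropomyosin of fast fibres (chr9:67022590-67049406), was at 126 TPM in both KO libraries, against 47.6 and 42.7 TPM in WT. Tpm2, the beta tropomyosin of striated and smooth muscle (chr4:43514711-43523765), was at 151 and 134 TPM in KO and 8.27 and 11.3 TPM in WT. Tpm3, the slow-fibre tropomyosin that also has widespread short forms (chr3:90072649-90100902), was at 33.5 and 40.9 TPM in KO and 31.8 and 38.0 TPM in WT. KO was above WT without overlap for Tpm1 and Tpm2, as it was in CPM for 13.2% of all genes tested. The groups overlapped for Tpm3 in TPM. The fitted log2 difference of KO over WT was 1.41 for Tpm1 (SE 0.19), 4.03 for Tpm2 (SE 0.25) and 0.13 for Tpm3 (SE 0.16), and 1.53, 3.88 and 0.09 without the library labelled WT 1.

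Split by transcript form, the Tpm1 difference was one of kind as well as amount. Complete coding transcripts were sorted by whether they begin with the long first exon of the striated form and whether they end in the striated exon printed above. The long form with the striated end was at 87.3 and 75.4 TPM in KO, against 4.72 and 4.09 TPM in WT, which was 69.2% and 59.7% of Tpm1 TPM in KO and 9.90% and 9.57% in WT. Its main transcript, ENSMUST00000113685, stood at 80.8 and 74.3 TPM in KO and 3.16 and 2.52 TPM in WT. Short forms with the other end, which serve the cytoskeleton, were lower in KO, at 9.45 and 17.2 TPM in KO and 35.4 and 29.5 TPM in WT. Most of this was ENSMUST00000113695, with 5.30 and 14.6 TPM in KO and 29.0 and 25.4 TPM in WT. In both comparisons the groups did not overlap. In gene CPM, KO was above WT in this way for 13.2% of all genes tested and below for 13.1%. The share over all transcripts was not counted, so nothing is read from the lack of overlap.

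A further Tpm1 form complicates this reading. ENSMUST00000113707 has the long start and the other end and differs from ENSMUST00000113685 only in the last exon, sharing 772 of 852 coding bases with it. It was at 20.8 and 21.2 TPM in KO and 0.488 and 0.249 TPM in WT. It shares 612 of its coding bases with the short form ENSMUST00000113695. Summed over all transcripts with the other end, whatever their start, Tpm1 was at 37.0 and 49.2 TPM in KO and 39.6 and 34.7 TPM in WT, so that the groups overlapped. Reads that match several of these transcripts were divided by the authors' quantification, and how far the lower short form in KO depends on that division was not tested. Of the remaining named forms, ENSMUST00000113705, long with the other end, was at 6.54 and 3.19 TPM in KO and 3.68 and 4.69 TPM in WT. ENSMUST00000113686, short with the other end, was at 2.08 and 0.627 TPM in KO and 3.58 and 1.86 TPM in WT.

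In Tpm2 both ends were higher in KO. Transcripts with the striated end were at 61.9 and 52.4 TPM in KO, against 1.07 and 1.31 TPM in WT. In KO this was all ENSMUST00000107913, while in WT most of it was assigned to ENSMUST00000030184, at 1.07 and 0.925 TPM, which was at 0 TPM in both KO libraries. The form with the other end, ENSMUST00000107914, known from smooth muscle and non-muscle cells, was at 47.8 and 42.9 TPM in KO, against 7.04 and 9.87 TPM in WT. It made up 31.6% and 32.1% of Tpm2 TPM in KO, against 85.1% and 87.1% in WT, where it was the main form. These forms share 81.7% of their coding bases. How far the higher level of the other end in KO depends on the division of shared reads was not tested. Incomplete transcripts with short effective lengths took another 41.7 and 38.5 TPM in KO, chiefly ENSMUST00000150592 at 30.3 and 31.3 TPM and ENSMUST00000133355 at 10.9 and 6.84 TPM, against 0.164 and 0.155 TPM in WT. The striated share of Tpm2 in KO was 40.03% of TPM on average, and 55.7% of TPM with the incomplete transcripts left out. In estimated counts, which are not divided by effective length (1899 bases for ENSMUST00000107913 and 965 for ENSMUST00000107914), it was 67.7%.

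In Tpm3 the long forms were higher in KO, while the short forms, which make up most of the gene's RNA, were not. The long form with the striated end, ENSMUST00000121503, was at 2.55 and 2.86 TPM in KO, against 0.305 and 0.4996 TPM in WT. A long form with the other end, ENSMUST00000119570, was at 2.41 and 1.65 TPM in KO and 0.260 and 0.104 TPM in WT. Both were higher in each KO library than in each WT library, as KO was in gene CPM for 13.2% of all genes tested. The share over all transcripts was not counted, so nothing is read from this. Each held at most 7.59% of the gene's TPM in a library. Short forms with the other end were at 20.3 and 24.2 TPM in KO, against 24.8 and 25.0 TPM in WT, mostly from ENSMUST00000029549 at 19.3 and 23.3 TPM in KO and 24.2 and 24.5 TPM in WT. ENSMUST00000118566, short with the striated end, was at 4.77 and 6.11 TPM in KO and 3.48 and 6.44 TPM in WT. The long striated form made up 7.29% of Tpm3 TPM in KO on average, and 3.83% of its estimated counts. The named transcripts without a complete coding sequence were ENSMUST00000131354, at 1.75 and 2.02 TPM in KO and 1.41 and 2.27 TPM in WT, and ENSMUST00000149734, at 1.16 and 0 TPM in KO and 0.809 and 2.39 TPM in WT. A near-identical copy of the gene, Tpm3-rs7, held 8 and 4 counts in KO and 2 and 8 in WT, against 1811 and 2114 counts of Tpm3 itself in KO and 1990 and 2475 in WT.

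**Figure D3:**
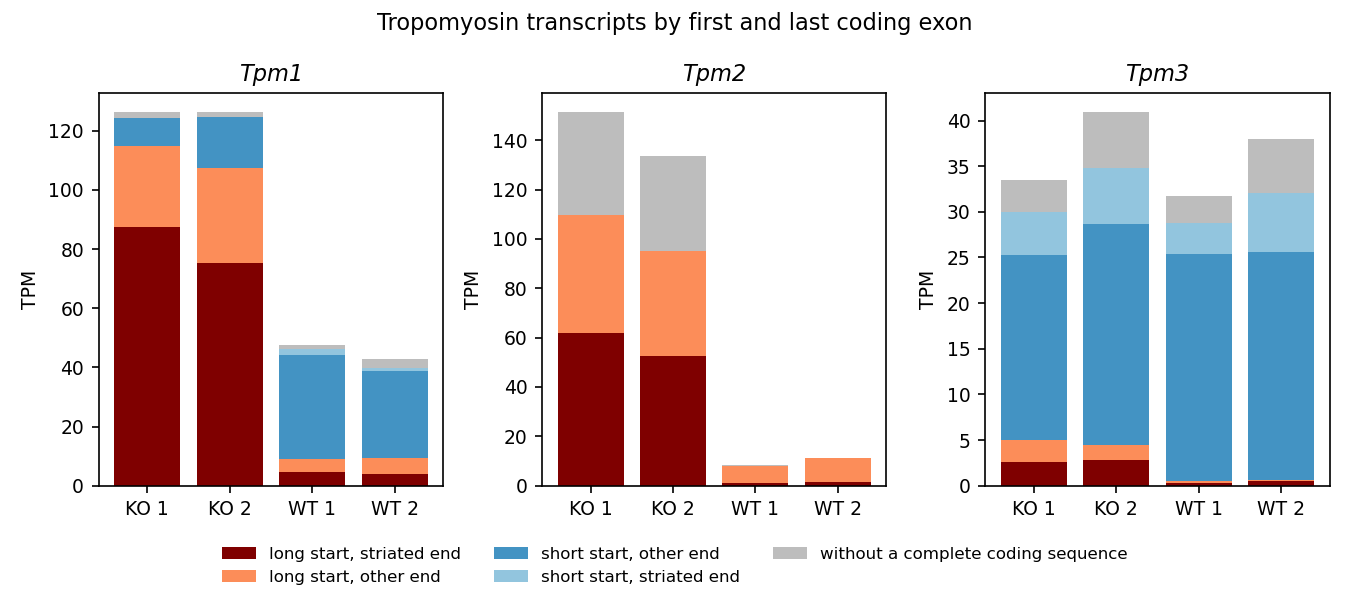
TPM of Tpm1, Tpm2 and Tpm3 in KO 1, KO 2, WT 1 and WT 2, stacked by form of the transcript (long or short first coding part, striated or other last exon, or no complete coding sequence). Striated ends fill most of Tpm1 in KO at 87.3 and 75.4 TPM, short forms with the other end fill most of it in WT, and Tpm3 is mainly short forms in all libraries.

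Across all genes, edgeR's quasi-likelihood test called 0.767% of the 15643 genes tested higher in KO and 0.0128% lower, at an adjusted p under 0.05. Of the 10 troponins and tropomyosins, 9 passed the filter on low counts, and 7 of these were called higher and 0 lower. Tnnc1 and Tpm3 were not called, Tpm1 was not called with any 1 library left out, Tnni1 was not called without KO 2, and Tnnc1 was called without either WT library. In CPM both KO libraries were above both WT libraries for all 9 tested, Tpm3 included, against 13.2% of all genes, and below them for 0 of the 9, against 13.1%. As the set was chosen on this contrast, nothing is read from these counts. The median log2 difference was 4.03 over the 9 and 0.00 over all genes.

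Other genes of the thin filament and of fibre types were counted from lists drawn up with these results known. Nothing is therefore read from how many were called or from the adjusted p-values given, which come from the edgeR test over all genes. Over all genes 0.767% were called higher and 0.0128% lower. Of 15 further genes of the striated thin filament, 14 were tested, and 9 were called higher and 0 lower, with a median log2 difference of 4.11. Acta1, skeletal muscle actin, was at 664 and 455 CPM in KO, against 0.223 and 0.299 CPM in WT. Neb, the giant protein that spans the thin filament, was at 76.3 and 52.0 CPM in KO and 0.542 and 0.789 CPM in WT (adjusted p = 0.00137). Nrap, an anchoring protein of muscle actin, was at 43.7 and 29.9 CPM in KO and 0.0956 and 0 CPM in WT (adjusted p = 0.00279). Cfl2, an actin-severing cofilin, was at 57.1 and 70.3 CPM in KO and 62.9 and 55.8 CPM in WT and was not called. Without the library labelled WT 1, 10 of the 14 were called higher, and without KO 2 it was 6.

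Fast and slow fibre genes were counted in the same way, and nothing is read from these counts and adjusted p-values either. Of 10 other fast fibre genes, 9 were called higher and 0 lower, with a median of 9.98. Myh4, the myosin of the fastest fibres, was at 520 and 615 CPM in KO and had 0 counts in both WT libraries (adjusted p = 0.000685). Myh1, which encodes the 2X myosin of fast fibres, had 297 and 262 CPM in KO and 0.0956 and 0.0817 CPM in WT (adjusted p = 0.000391). Atp2a1, the fast calcium pump, was at 430 and 568 CPM in KO and 0.127 and 0.272 CPM in WT. Myl1, a fast light chain, was at 183 and 99.1 CPM in KO and 38.7 and 44.3 CPM in WT and was not called. Of 8 other slow fibre genes, 5 were called higher and 0 lower, with a median of 4.62. Myh7, the slow and cardiac myosin, was at 22.7 and 15.3 CPM in KO and 0.0319 and 0.0272 CPM in WT (adjusted p = 0.000986). Mybpc1, slow myosin-binding protein C, was at 73.4 and 60.2 CPM in KO and 0 and 0.0272 CPM in WT (adjusted p = 0.000406). Atp2a2, the slow pump that most cells also express, was at 209 and 264 CPM in KO and 276 and 261 CPM in WT. Casq2, a calcium store protein, was at 4.88 and 2.67 CPM in KO and 3.54 and 4.22 CPM in WT, and neither it nor Atp2a2 was called. Without KO 2, 2 of the 8 slow genes were called higher, and without KO 1, 3 were.

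Actin filament genes of smooth muscle and non-muscle cells were counted as well. Of 20 tested, 0 were called in either direction by any of edgeR, DESeq2 and limma. As edgeR called only 0.767% of all genes higher, 0 of 20 is near that share, and nothing is read from it. At an unadjusted edgeR p under 0.05 were 3 of the 20, against 629 of 15643 genes. Both KO libraries were above both WT libraries for 6 of the 20 and below them for 2, against 13.2% and 13.1% of all genes. The log2 differences ran from -0.14 to 1.36, with a median of 0.19. Beta-actin (Actb) was at 428 and 637 CPM in KO and 654 and 471 CPM in WT, and gamma-actin (Actg1) at 418 and 435 CPM in KO and 443 and 496 CPM in WT. Myl6, a non-muscle light chain, was at 341 and 314 CPM in KO and 347 and 309 CPM in WT, and Myh9, a non-muscle myosin, at 176 and 218 CPM in KO and 183 and 193 CPM in WT. Tpm4, a tropomyosin of non-muscle cells outside the 10 genes, was at 21.7 and 32.4 CPM in KO and 20.2 and 28.5 CPM in WT.

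Marker lists of cell types overlap the gene lists above: 8 of the 10 skeletal fibre markers, 5 of the 6 smooth muscle markers and 2 of the 8 cardiac markers are already counted there. As with those lists, nothing is read from how many were called. All 10 skeletal fibre markers were called higher in KO, with 0 lower, and their summed level was 2557 and 2441 CPM in KO 1 and KO 2, against 1.53 and 1.58 CPM in WT 1 and WT 2. In a bulk sample, more fibres in the tissue and more RNA of these genes per cell cannot be told apart, and the part of such fibres in the troponin values was not tested. Of 8 cardiac markers, 2 were tested by edgeR and 0 called, with 1 at an unadjusted p under 0.05 and 1 called higher with the prefix as a block. Their summed level was 11.2 and 18.1 CPM in KO and 20.3 and 21.5 CPM in WT, nearly all of it Ryr2, a calcium channel, at 9.69 and 17.5 CPM in KO and 19.8 and 21.4 CPM in WT. The other cardiac marker tested, cardiac actin (Actc1), was at 0.977 and 0.411 CPM in KO, against 0.0637 and 0.0272 CPM in WT, and is the one with the unadjusted p under 0.05 (adjusted p = 0.277). Nppb and Myl7 had 0 counts in all 4 libraries. Of 6 smooth muscle markers 0 were called by edgeR, DESeq2 or limma, with 2 at an unadjusted edgeR p under 0.05. They summed to 190 and 104 CPM in KO and 87.4 and 111 CPM in WT. The fitted log2 differences of all 6 were higher in KO, from 0.24 to 1.36 with a median of 0.81. They were 0.70 for Acta2, 0.52 for Myh11, 0.24 for Smtn and 0.92 for Tagln. Both KO libraries were above both WT libraries for 2 of the 6, against 13.2% of all genes. With 0.767% of all genes called higher by edgeR, 0 of 6 says little. No marker of developing or regenerating muscle had enough counts to be tested by edgeR, and DESeq2 called 0 of 4. Of these 7, Myog, a regulator of muscle differentiation, was at 0.195 and 0.103 CPM in KO and 0 in WT, and the sum was 1.09 and 0.343 CPM in KO and 0.0319 and 0.0272 CPM in WT. Of 8 brown adipocyte markers 0 were called by edgeR, DESeq2 or limma, with 1 at an unadjusted p under 0.05, 1 called lower with the prefix as a block, 1 called higher without WT 2, and a median of 0.01.

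The KO libraries differed from each other in the same direction for most of these genes. KO 2 stood below KO 1 in CPM for 8 of the 9 tested. How many of all genes do so was not counted, so nothing is read from this number. The ratio of KO 2 to KO 1 was 0.768 for Tnnt3, 0.775 for Tnni2 and 0.778 for Tnnc2, so the 3 fast subunits kept the same proportion. It was 0.618 for Tnnt1, 0.649 for Tnni1 and 0.416 for Tnnc1, and 0.759 for Tpm2, 0.897 for Tpm1 and 1.02 for Tpm3. Within the prefix S1 (KO 1 against WT 2) the log2 CPM difference ran from 0.07 for Tpm3 to 10.89 for Tnnt3, and within S2 (KO 2 against WT 1) from 0.19 to 10.09 for the same genes.

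The prefix itself was not used to choose the genes, so S2 against S1 was tested with genotype in the model. Of the 9 genes 0 were called, against 3.14% of the 15643 genes (1.59% higher and 1.55% lower in S2). DESeq2 also called 0, against 386 of 11764 genes, but it gave no adjusted p for Tnni1 and Tnnc1. By edgeR 1 of the 9, Tpm2, had an unadjusted p under 0.05, as did 3105 of the 15643 genes, so this share is no higher among the 9 than over all genes. Tpm2 was at 151 CPM in KO 2 and 9.49 CPM in WT 1, the S2 libraries, against 199 CPM in KO 1 and 11.9 CPM in WT 2, the S1 libraries. Its log2 difference of S2 over S1 was -0.36 (SE 0.15, adjusted p = 0.227), and S2 was lower within both genotypes. Tnnc1 had -0.78 (SE 0.45), Tnnt1 -0.71 (SE 0.34) and Tnnt3 -0.33 (SE 0.22), with adjusted p of 0.363, 0.280 and 0.426 in edgeR. The median was -0.36 over the 9 genes and -0.01 over all genes. This fit leaves 1 residual degree of freedom, so its errors rest largely on variation pooled across genes.

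**Figure D4:**
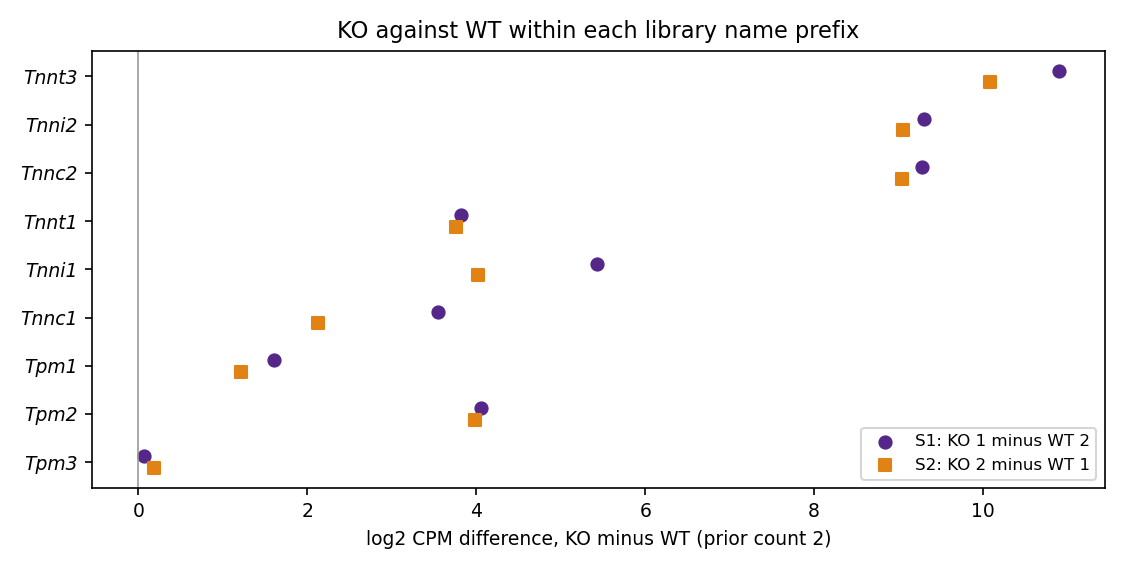
Difference of KO minus WT in log2 CPM (prior count of 2) within each library name prefix, S1 (circles, KO 1 and WT 2) and S2 (squares, KO 2 and WT 1), for the 9 genes tested. All points lie right of 0, the fast troponins between 9.03 and 10.89 and Tpm3 at 0.07 and 0.19.

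The protein-coding genes with the pattern most like the mean of the 3 fast troponins, by Euclidean distance of centred log2 CPM over the 4 libraries, were Ttn, Mybpc1, Actn3, Acta1 and Myh1. Ttn, the titin spring of the sarcomere, was nearest at a distance of 0.305, with 216 and 157 CPM in KO and 0.159 and 0.218 CPM in WT. Mybpc1 followed at 0.430, then Actn3, the fast-fibre actinin, at 0.692, Acta1 at 1.16 and Myh1 at 1.23. With 4 libraries that fall into 2 levels, this is a likeness of size and not a measure of shared control.

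Around the 10 genes, within 50 kb of their annotated spans, lie 54 other genes, of which 30 were tested. The median log2 difference of KO over WT was 0.13 over these 30. By edgeR 1 of them was called higher and 0 lower, against 0.767% and 0.0128% of all genes tested, and nothing is read from this count. The gene called was Nctc1, a non-coding RNA 28.6 kb from Tnnt3, at 1.88 and 1.61 CPM in KO and 0 in both WT libraries (edgeR adjusted p = 0.0329). Prr33, whose span overlaps that of Tnnt3, was at 4.06 and 3.26 CPM in KO and 0.446 and 0.817 CPM in WT (edgeR adjusted p = 0.0985). Tnnc1 lies inside the span of Nisch, which was at 208 and 203 CPM in KO and 172 and 183 CPM in WT. Tnnc2 overlaps Ube2c, at 0.938 and 1.03 CPM in KO and 1.43 and 1.28 CPM in WT. Reads of overlapping genes are uncertain here, and how far they enter the counts of Tnnt3, Tnnc1 and Tnnc2 was not tested. Tnnt3 and Tnni2 themselves lie 54.4 kb apart on chromosome 7, while Tnnc2 is on chromosome 2.

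Promoter windows were read from RefSeq (GRCm38.p6) for 8 of the 10 genes, all but Tnnt3 and Tnni2. There were 11 windows, since Tnni1, Tnnt2 and Tpm3 have 2 each, and those of Tnni1 overlap. The upstream part of the fast and the slow troponin C gene is shown because they are the paired forms of the same calcium sensor. Each runs 5′ to 3′ up to the start annotated in RefSeq. For Tnnc2 that start lies inside the GENCODE span used for the counts, which reaches to chr2:164779967. Most of the Tnnc2 bases shown are therefore within that span. Capitals mark CANNTG, the E-box bound by muscle regulators of the MyoD family, and CATTCC, the MCAT motif, on either strand.
Tnnc2, chr2:164779735-164779984, minus strand: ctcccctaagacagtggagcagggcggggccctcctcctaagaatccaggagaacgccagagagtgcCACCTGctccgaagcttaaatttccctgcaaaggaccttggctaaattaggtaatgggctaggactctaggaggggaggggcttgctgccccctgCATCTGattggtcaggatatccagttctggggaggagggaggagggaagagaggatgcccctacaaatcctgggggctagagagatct
Tnnc1, chr14:31208062-31208311, plus strand: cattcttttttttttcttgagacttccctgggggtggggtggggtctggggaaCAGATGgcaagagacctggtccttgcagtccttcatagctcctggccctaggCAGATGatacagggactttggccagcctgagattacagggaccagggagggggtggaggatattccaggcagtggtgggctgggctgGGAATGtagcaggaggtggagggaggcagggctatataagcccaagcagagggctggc
An E-box was in 11 of the 11 windows, against 72.3% of all 32851 RefSeq windows of the same length. An MCAT motif was in 3 of the 11, those of Tnnc1, Tnnt2 and Tpm1, against 14.7% of all windows. The MEF2 and CArG motifs were in 0 of the 11, against 3.19% and 1.63%. The 3 genes with an MCAT motif ran from 0 and 2 counts (Tnnt2) to 126 TPM (Tpm1) in KO.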

How the data were processed

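The members and gene lists were chosen with earlier results of these data known. Messenger RNA of 4 libraries was prepared with a stranded TruSeq kit, per the labels' protocols. Per the submitters' processing notes, kallisto 0.45.0 and build mm10 were used; the sources used here name no transcript set or strand setting. For each of 141450 transcripts the authors deposited an estimated count and a TPM value, which kallisto obtains by dividing reads shared between transcripts. By Ensembl identifier 138191 transcripts were assigned to GENCODE vM21 genes (GRCm38), and the unmatched ones held 0.992 to 1.04% of counts. Summing the estimated counts over a gene's transcripts and rounding gave gene counts, and deposited TPM were summed per gene or form.

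KO was compared with WT by edgeR 4.0.16 (quasi-likelihood, TMM, filterByExpr with a minimum count of 10 and total of 15, Benjamini-Hochberg over 15643 genes, threshold 0.05) in R 4.3.3. The p-values set each difference against the spread between libraries, partly pooled across genes, and that spread may be technical. Each SE was derived from the fitted log2 change and the F value. S2 was compared with S1 in the same way with genotype in the model. Shares have Wilson intervals at 95% confidence, and pooled ratios have exact ones. Named beyond the 10 genes were the tropomyosin transcripts with at least 5% of their gene's TPM in a library, up to 4 genes of each list by mean CPM, the 5 genes most alike in pattern and neighbours within 50 kb. Myog, Dio2, Tpm4, Tpm3-rs7, Nppb, Myl7, 2 Tnnt3 transcripts and 1 Tnnc2 transcript were named after their values were seen. Alternatives were other scaling, filters, blocks, DESeq2 1.42.0, limma 3.58.1 on log2(TPM + 1), each library left out and genes of mitochondrial DNA left out. Counting the lists without the library labelled WT 1 was chosen after seeing the data.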

Additional observations from a re-analysis of the deposited data

How the results depend on the processing

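All 9 tested genes kept KO above WT under the 12 alternatives run. The number called was 5 to 8: Tnnc1 was also called without the filter, with either block, in DESeq2 and without either WT library, Tpm1 was not called with the replicate block or with any 1 library left out, and Tnni1 was not called without KO 2. On log2(TPM + 1) in limma the difference was smaller, at 7.76 for Tnnt3.

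Over all genes 122 were called, against 457 without a filter, 320 with the library name prefix as a block, 210 in DESeq2 and 78 to 205 with 1 library left out. The replicate block gave 164 called genes; deviations of libraries with the same number correlated at -0.38 over 15643 genes. With 2 libraries a group the same value with its sign turned applies to the prefix, so the prefix block is the crossed pairing. For S2 over S1, 491 genes were called, against 1446 without a filter and 1 with the prefix alone, where Tpm1 turned from 0.035 to -0.051 (adjusted p = 0.974).

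The striated share in KO moved with the unit: in estimated counts it was 54.2% for Tpm1 (64.4% of TPM), 67.7% for Tpm2 (40.03%) and 3.83% for Tpm3 (7.29%), and over complete coding transcripts 55.7% for Tpm2 and 8.35% for Tpm3. With 1 KO library left out it ran from 59.7 to 69.2%, 39.1 to 40.9% and 6.99 to 7.59%. The fast troponin share stayed at 97.3 to 98.1% under its 4 alternatives. Values of the fast genes in WT rest on 2 to 4 counts a library, which limits every ratio.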
